A study of Mus musculus with 6 samples.

Results

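The transcriptome described here is that of self-renewing HOXA9-immortalized granulocyte-macrophage progenitors (iGMPs), taken from the 2 IPTG-treated control libraries among the 6 RNA-seq libraries of the series. The rule that picks these libraries uses their labels and no measured value. The study asked how the histone chaperone CAF-1 keeps myeloid progenitors in their lineage, and its other libraries came from cultures with CAF-1 suppressed (CAF-1 OFF, 2 libraries) or with the HOXA9 fusion inactivated (HOXA9 OFF, 2 libraries). All cultures descended from C57Bl/6 Lys-GFP bone marrow transduced with HOXA9 fused to the ligand-binding domain of a mutant estrogen receptor, and were harvested at 24 h. The control cells were grown with stem cell factor from a conditioned medium and 150 ng/ml of estradiol, which keeps the fusion active, and received IPTG for 24 h. CAF-1 OFF cells received 500 µM IPTG to induce a hairpin against Chaf1b in the same medium, whereas HOXA9 OFF cells were washed and cultured without estradiol. The methods describe the control line as clones with an inducible vector that carries a spacer in place of a targeting hairpin. The study's supplement speaks of RNA-seq from independent subclones but does not tie them to replicate numbers. The labels do not give the clone behind either control library, the IPTG dose of the controls, or whether the libraries came from separate cultures, so the spread between them may be technical.

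Granulocyte-macrophage progenitors arise in the bone marrow from stem cells and give rise to neutrophils and monocytes. They carry the receptors for stem cell factor and other growth factors, depend on transcription factors such as PU.1 (Spi1) and C/EBPα (Cebpa), and begin to fill the primary granules of the neutrophil lineage before the later granule proteins are made. HOXA9 is a homeobox transcription factor of stem and progenitor cells that is lost as they mature, and forced HOXA9 activity holds such progenitors in cycle.

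Gene counts summed to 25170898 in control library 1 and 16773560 in control library 2. Levels are given as counts per 1000000 gene counts (CPM), in the order library 1 then library 2, and 3 counts corresponded to 0.119 and 0.179 CPM, the limit a count of 0 allows in each library. A gene was called on at 1 CPM or more in both libraries and silent at 3 counts or fewer in both, limits that cover counting error only. By these limits 10841 of 34199 genes were on (31.7%) and 20025 were silent (58.6%). Among 21909 protein-coding genes, 10224 were on (46.7%) and 9725 were silent (44.4%). Protein-coding genes held 98.1% of the mean CPM, and 174 of 1259 long intergenic RNAs were on.

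Abundance was spread over many genes. The most abundant gene held 0.651% of the counts in library 1 and 0.485% in library 2. The 10 highest genes held 3.77% and 3.51%, the 100 highest 15.4% and 15.4%, and the 1000 highest 48.2% and 48.1%. It took 1086 genes in library 1 and 1091 in library 2 to reach 50% of the counts, and 5209 and 5269 to reach 90%. By mean CPM, 66 genes lay at 1000 CPM or above and held 12.3% of the counts in either library, while 2628 genes between 100 and 1000 CPM held 60.2% and 60.0%. A further 5993 genes between 10 and 100 CPM held 26.5% and 26.6%, and the 2425 genes between 1 and 10 CPM held 0.938% and 1.03%.

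**Figure D1:**
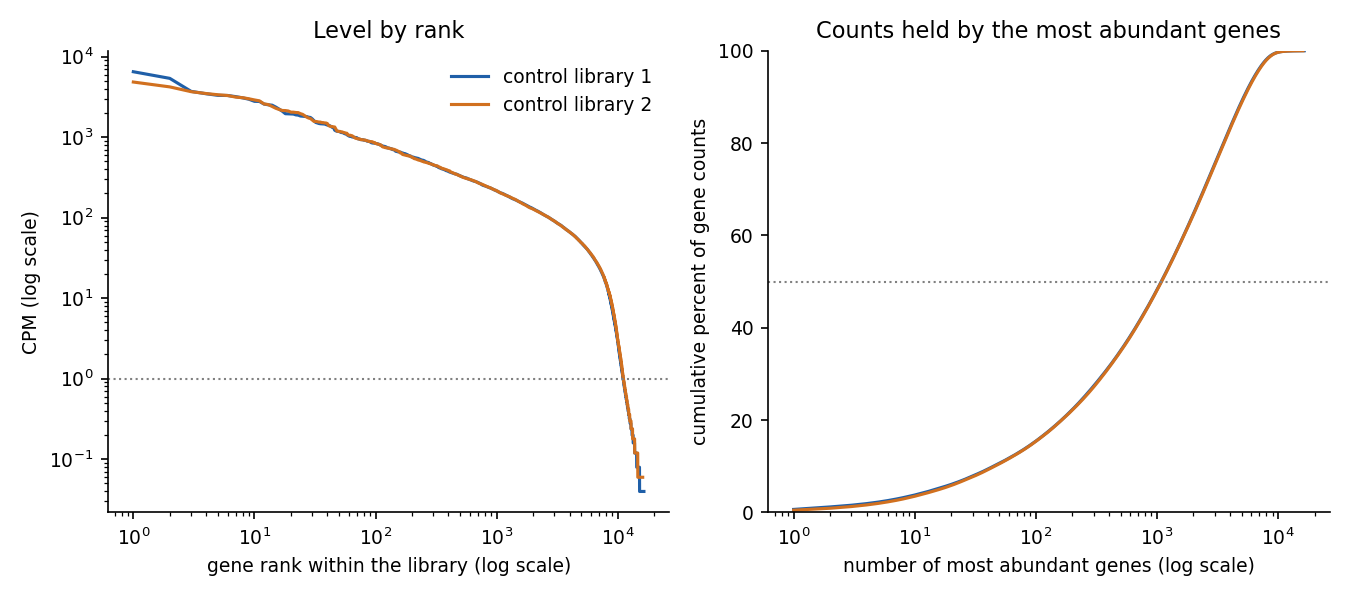
Left, CPM of each gene against its rank within the library (both axes logarithmic, dotted line at 1 CPM); right, cumulative percent of gene counts against the number of most abundant genes (logarithmic horizontal axis, dotted line at 50%). The curves of control library 1 and control library 2 lie on each other except at the highest ranks and cross 50% at 1086 and 1091 genes.

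The most abundant transcripts included granule enzymes of early neutrophils and factors of protein synthesis and folding. Mpo, the myeloperoxidase of the primary granule (chromosome 11, 87607083 to 87617915, NCBIM37), stood at 6510 and 4219 CPM, a mean of 5365 ± 1620 CPM (SD, n = 2). Its exons overlap Gm11505 on the other strand by 461 bases. Hsp90ab1, a constitutive cytosolic HSP90 chaperone (chromosome 17, 45704724 to 45710220), stood at 5386 and 4850 CPM. Mpo ranked above Hsp90ab1 in library 1 and below it in library 2, so the order of the leading pair was not fixed by these libraries. Ctsg, the granule protease cathepsin G, was at 3313 and 3299 CPM, and Calr, the endoplasmic reticulum chaperone calreticulin, at 3714 and 3151 CPM. The elongation factor genes Eef1a1 (3465 and 3681 CPM) and Eef2 (3299 and 3098 CPM) were at similar counts, with Actb, encoding β-actin, at 3194 and 3369 CPM.

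Ribosomal protein genes gave 6 of the 25 highest genes (among them Rps3, Rpl4, Rpl8, Rplp0 and Rpl13a, with means of 2022 to 3284 CPM). Pabpc1, which binds poly(A) tails, Eif5a and Eif4g2, which act in translation, and Gnb2l1, which encodes the ribosome-associated scaffold RACK1, had means of 2778, 1990, 1923 and 2717 CPM. The nucleolar protein gene Ncl (2497 CPM), the RNA-binding protein gene Hnrnpa2b1 (2176 CPM) and the mitochondrial ATP synthase subunit genes Atp5b (2898 CPM) and Atp5a1 (2049 CPM) followed. P4hb and Hspa5, folding factors of the endoplasmic reticulum, had means of 1971 and 1952 CPM, Plac8, a gene of myeloid progenitors, 2395 CPM, and Scd2, a fatty acid desaturase, 1994 CPM. The libraries shared 23 of their 25 and 89 of their 100 highest genes. Of the 25 genes, 23 lay within 1.2-fold of each other in the libraries and Mpo alone lay 1.5-fold or more apart.

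A count grows with the length of a transcript. Genes were therefore also ranked as CPM per kb, over the exons of the transcript with the longest coding sequence. Apart from this paragraph and the ribosomal protein genes below, orders of genes are by CPM and are not adjusted for length. Per kb, Ctsg stood first at 3306 and 3293, above Mpo at 2367 and 1534 CPM per kb, although Mpo had the higher CPM in both libraries. Rpl8 stood at 2749 and 2954, Rplp1 at 2251 and 2351, and Hsp90ab1 at 2137 and 1925 CPM per kb. Ribosomal protein genes made up 6 of the 15 highest genes per kb and primary granule genes 2. Plac8 (2043 and 1870 CPM per kb) and Gpx1, the glutathione peroxidase gene (1698 and 1643 CPM per kb), were also among them. The ranges of Mpo, Hsp90ab1, Eef1a1 (1932 and 2052 CPM per kb), Rpl4 (1955 and 1991 CPM per kb) and Plac8 overlapped, so no order is given among these 5 genes.

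The promoters of the abundant genes were of unlike make-up, and stretches of 4 are shown to let granule genes be compared with genes of general cell growth. Each runs from 120 bases before to 10 bases after the start that RefSeq gives on GRCm38.p6, in the direction of transcription, with CG dinucleotides in capitals.
Mpo (chr11:87793664-87793793, plus strand): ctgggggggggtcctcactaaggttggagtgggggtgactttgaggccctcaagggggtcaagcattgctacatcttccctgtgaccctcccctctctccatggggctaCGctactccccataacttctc
Ctsg (chr14:56102565-56102694, minus strand): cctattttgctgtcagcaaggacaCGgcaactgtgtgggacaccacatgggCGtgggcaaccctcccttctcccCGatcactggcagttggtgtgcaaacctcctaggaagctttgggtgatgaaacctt
Eef1a1 (chr9:78481715-78481844, minus strand): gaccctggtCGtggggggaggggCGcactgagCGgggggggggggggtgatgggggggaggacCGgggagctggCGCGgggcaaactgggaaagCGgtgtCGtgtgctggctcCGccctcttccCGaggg
Ncl (chr1:86359446-86359575, minus strand): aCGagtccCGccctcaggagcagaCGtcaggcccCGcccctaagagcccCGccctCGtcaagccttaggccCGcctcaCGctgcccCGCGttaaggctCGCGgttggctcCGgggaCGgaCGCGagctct
The printed stretches held 1, 3, 10 and 16 CG dinucleotides, in that order, for genes of 5365, 3306, 3573 and 2497 mean CPM. Over the full 300 bases of the table the 4 promoters held 2, 8, 22 and 33.

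The same measure was read over the 12312 protein-coding genes that had 1 promoter in the table. The median ratio of observed to expected CG (CG count times length over the product of the C and G counts) was 0.797 for the 5905 genes that were on and 0.237 for the 5472 that were silent, against 0.590 over all. By abundance the median was 0.216 at no count, 0.420 under 1 CPM, 0.642 from 1 to 10 CPM, 0.802 from 10 to 100 CPM, 0.848 from 100 to 1000 CPM and 0.923 at 1000 CPM or more (35 genes). The 10 primary granule genes that were on and had 1 promoter had a median of 0.275, near the silent genes, whereas the 26 DNA replication genes had 0.905. The motif TATAAA, searched on both strands, occurred in 6.15% of promoters of genes that were on and 22.4% of those that were silent (13.7% over all). CCGGAAG, a sequence that many ETS factors bind, occurred in 21.1% and 2.76% (11.9% over all), and CCAAT in 40.5% and 39.3% (39.7% over all). The 35 genes at 1000 CPM or more departed from this, with TATAAA in 14.3% and CCGGAAG in 17.1%. From 100 to 1000 CPM these shares were 6.45% and 24.4%. Among the 23 mitosis genes with 1 promoter, 87.0% held CCAAT. These are matches of letters and give no binding.

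The label of the cells was set beside a list of 10 surface antigens carried by granulocyte-macrophage progenitors, which includes general leukocyte genes. Of these 10, 9 were on (90%, against 46.7% of protein-coding genes). Cd34 (chromosome 1, 196765015 to 196787486) stood at 1826 and 1845 CPM, Kit, the receptor of stem cell factor, at 718 and 557 CPM, and Flt3, a receptor tyrosine kinase of early progenitors, at 240 and 338 CPM. Fcgr3 and Fcgr2b, the Fc receptors recognised in the CD16/32 stain of these cells, stood at 96.8 and 77.7 CPM and at 73.1 and 64.9 CPM. The leukocyte genes Spn (395 and 387 CPM) and Ptprc (202 and 265 CPM) were also on. The exception was Cd27, at 0.516 and 1.19 CPM. Of 6 antigens that exclude the phenotype, Slamf1 was silent and Ly6a and Il7r were at most 0.537 CPM in either library. Procr was at 1.43 and 0.656 CPM. Thy1 was the member that was on, at 19.6 and 9.18 CPM.

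Transcription factors of progenitors were on in 36 of 39 cases, against 46.7% of protein-coding genes. Myb, a regulator of progenitor growth, led at 954 and 883 CPM, followed by Myc (589 and 565 CPM), the lymphoid and myeloid regulator Ikzf1 (434 and 397 CPM), and Gfi1, a transcriptional repressor needed for granulocyte development (409 and 404 CPM). Hlf, a factor of stem cells, was at 267 and 251 CPM. The granulocyte regulator Cebpa was at 236 and 280 CPM, its later relative Cebpe at 113 and 80.2 CPM, and Spi1 at 190 and 159 CPM. Irf8, which directs monocyte development, was at 36.0 and 27.6 CPM. Mecom, a factor of stem cells, and Bcl11a, a factor of lymphoid and erythroid cells, were silent, and Bcl11a had no count.

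Hoxa9 was the sole member of the HOX clusters that was on. It stood at 280 and 219 CPM (chromosome 6, 52173099 to 52181088). The counts per gene used here do not divide the fusion from the cell's own gene. The study reports that its read tracks of uninduced cells, and of both inductions at a later time, lack coverage of both Hoxa9 untranslated regions. It reads this as the transgene being expressed and the cell's own gene not. Those tracks were not analysed here. Of 39 HOX genes, 37 were silent, against 44.4% of protein-coding genes, and 32 had no count in either library, against 48.6% of all genes, among them Hoxa10 and the whole of the D cluster. Hoxa7, next to Hoxa9, had 0.0795 CPM in library 1 and no count in library 2. Hoxb4 was the remaining member, with no count in library 1 and 0.238 CPM in library 2. Transcripts of some partners of HOX factors were found. Of the 47 HOX and partner genes listed together, 6 were on (12.8%, against 46.7% of protein-coding genes) and 39 were silent. Meis1 was at 43.3 and 57.8 CPM, Pbx2 at 86.1 and 80.8 CPM, Pknox1 at 44.5 and 41.4 CPM, Pbx3 at 20.1 and 20.2 CPM and Pbx4 at 7.63 and 11.7 CPM. Among the partner genes that were not on, Meis2 had no count.

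Genes of the primary granule were on in 13 of 15 cases (86.7%, against 46.7% of protein-coding genes) and together held 1.61% of the counts of library 1 and 1.29% of those of library 2. Beside Mpo and Ctsg, the serine protease genes Prtn3 (1416 and 1069 CPM) and Elane (462 and 291 CPM) were abundant. So were Serpinb1a, which encodes an inhibitor of these proteases (1690 and 1559 CPM), and Srgn, the proteoglycan that packs them (1186 and 998 CPM). Ms4a3, a gene of granulocyte-monocyte progenitors, was at 296 and 209 CPM. Bpi, a bactericidal protein gene, was at 0.318 and 0.477 CPM. Lyz2, the lysozyme M gene, had no count in either library, and the strain behind these cells carries a GFP reporter driven by lysozyme sequences. A part of the reporter in that value was not tested.

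The proteins of secondary and tertiary granules, which are made later, held 0.0405% and 0.0293% of the counts. Of 27 members 13 were on, at 93.8 CPM or less, and this share of 48.1% was near the 46.7% of protein-coding genes and is no result about the list. Hp (haptoglobin) was at 93.8 and 52.6 CPM, Mmp8, the neutrophil collagenase, at 70.9 and 41.6 CPM, Pglyrp1 at 58.6 and 48.9 CPM, Lcn2 at 31.0 and 54.6 CPM and Fcnb at 36.9 and 24.1 CPM. Ngp was at 1.55 and 1.55 CPM, S100a8 at 2.54 and 2.38 CPM, S100a9 at 1.03 and 0.954 CPM, Camp at 0.397 and 0.358 CPM and Ltf at 0.477 and 0.179 CPM.

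**Figure D2:**
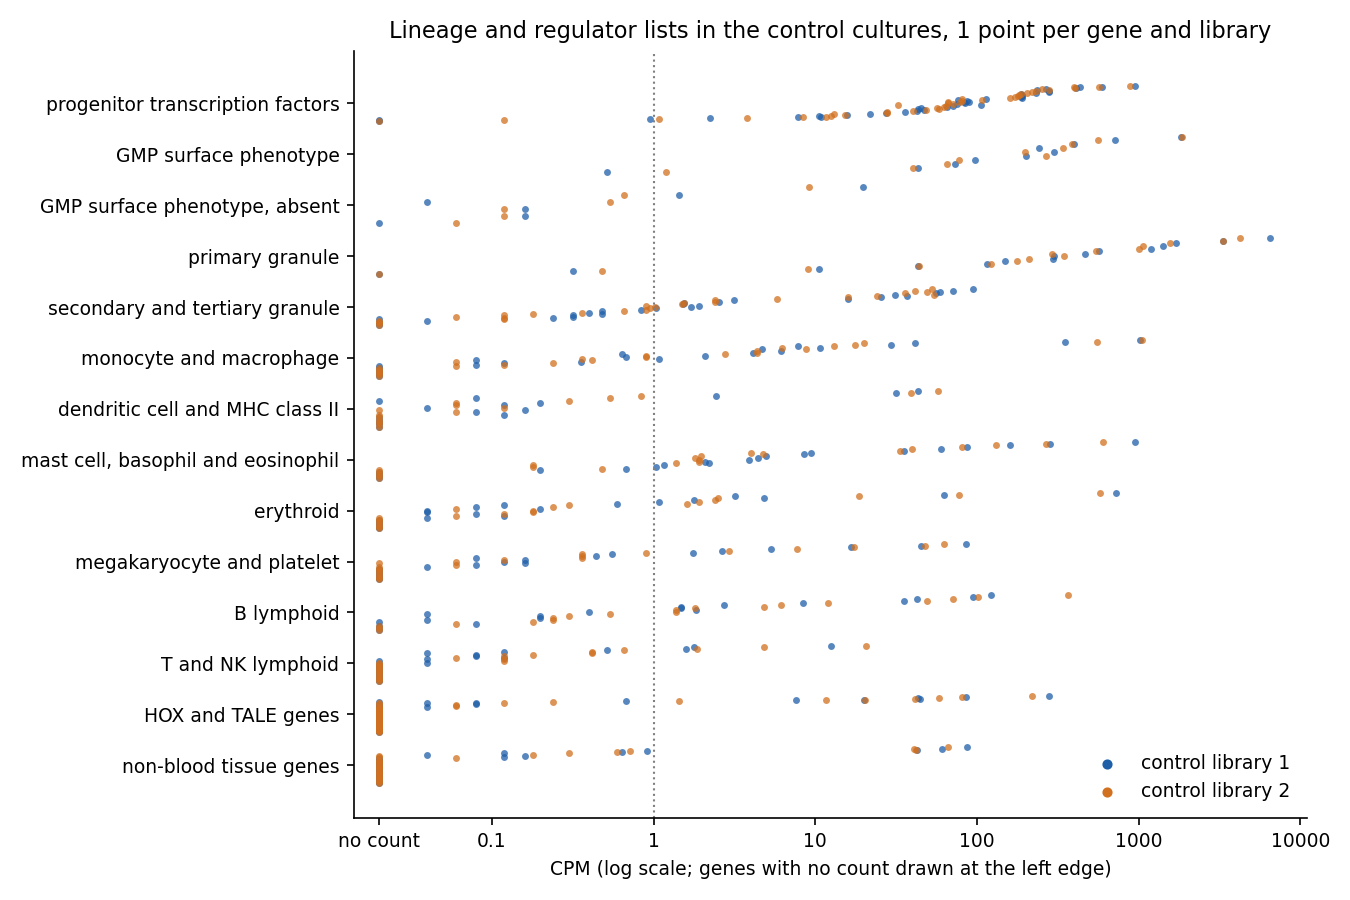
CPM (logarithmic axis) of every member of 14 gene lists in control library 1 and control library 2, 1 point per gene and library, with genes that had no count at the left edge and a dotted line at 1 CPM. Primary granule genes reach 6510 CPM, whereas T lymphoid genes reach 20.6 CPM and 32 of 39 HOX genes sit at the left edge.

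Of 24 monocyte and macrophage genes, 9 were on (37.5%, against 46.7% of protein-coding genes). F13a1, the coagulation factor XIII subunit of monocytes, was at 1025 and 1045 CPM, and Ccr2, the chemokine receptor of monocytes, at 350 and 554 CPM. The others that were on were Adgre1 (41.2 and 20.1 CPM), Ly6c2 (29.2 and 17.7 CPM), Fcgr1 (7.83 and 13.1 CPM), Cd14 (10.6 and 6.20 CPM), Cd163 (4.65 and 8.76 CPM), Cd68 (6.16 and 4.35 CPM) and Csf1r, the receptor of macrophage colony-stimulating factor (4.09 and 4.35 CPM). Mertk, Marco, C1qa and C1qc had no count. Of 16 dendritic cell and MHC class II genes, Bst2 (42.8 and 57.1 CPM) and Tcf4 (31.7 and 39.0 CPM) were on (12.5%) and 9 were silent, among them H2-Aa, H2-Ab1 and H2-Eb1, which encode MHC class II chains.

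Genes of mast cells, basophils and eosinophils were on in 13 of 21 cases (61.9%, against 46.7% of protein-coding genes). At a limit of 2 CPM 8 of the 21 were on, while the count over all genes went from 10841 to 10187. The share of protein-coding genes at that limit was not computed. The count of the list depended on the limit, and no excess over the background is read from it. Prg2, the eosinophil major basic protein gene, stood at 943 and 598 CPM and Prg3, its homologue, at 282 and 265 CPM. Cpa3, a mast cell protease gene, was at 160 and 132 CPM, Gata2 at 86.7 and 80.2 CPM, Hdc, the histidine decarboxylase gene, at 59.6 and 39.5 CPM, and the basophil protease gene Mcpt8 at 35.2 and 33.5 CPM. At lower levels were Ms4a2 (9.46 and 3.99 CPM), Il1rl1 (8.54 and 4.77 CPM) and Epx, the eosinophil peroxidase gene (4.93 and 1.97 CPM). Cma1, Prss34, Mitf and Il5ra were on at 4.41 CPM or less. Fcer1a, Tpsab1, Mcpt4 and Ccr3 had no count.

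In the erythroid list 6 of 21 genes were on (28.6%, against 46.7% of protein-coding genes). Tfrc, the transferrin receptor of all dividing cells, was at 722 and 580 CPM and the carbonic anhydrase gene Car2 at 62.6 and 77.4 CPM. Gata1, the erythroid and megakaryocyte regulator, was at 4.81 and 2.50 CPM, Sptb (erythroid β-spectrin) at 3.18 and 18.7 CPM, Aqp1 at 1.79 and 2.38 CPM and Epor at 1.07 and 1.91 CPM. The globin genes Hbb-b1, Hba-a2 and Hbb-bh1 had no count, and Alas2, of heme synthesis, was silent. Reads that map to several places were not counted, and 39.4%, 71.7% and 0.885% of the 50-base windows of these 3 globin transcripts occurred elsewhere in the genome. In the megakaryocyte list 5 of 21 were on (23.8%). These were the integrin genes Itgb3 (84.9 and 62.4 CPM) and Itga2b (16.6 and 17.3 CPM), the GATA cofactor gene Zfpm1 (44.8 and 47.5 CPM), Gp9 (5.28 and 7.75 CPM) and Pf4 (2.66 and 2.92 CPM). Vwf, Ppbp and Selp were silent.

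Of 19 B lymphoid genes, 9 were on, a share of 47.4% that was near the 46.7% of protein-coding genes and is no result about the list. Igll1, the surrogate light chain λ5, stood at 122 and 366 CPM, the early B cell factor gene Ebf1 at 95.0 and 101 CPM, the recombinase gene Rag2 at 42.8 and 70.6 CPM and the receptor subunit gene Cd79b at 35.1 and 48.8 CPM. Vpreb3 (8.42 CPM in library 1, a mean of 10.2 CPM), Rag1 (2.74 and 6.14 CPM), Cd79a (1.47 and 4.83 CPM), Blnk (1.47 and 1.79 CPM) and Dntt (1.83 and 1.37 CPM) were also on. Pax5, the factor that commits cells to the B lineage, and Ms4a1 were silent. Of 24 T and NK genes, Tcf7 (12.5 and 20.6 CPM), Lck (1.79 and 4.83 CPM) and Cd5 (1.59 and 1.85 CPM) were on (12.5%). Cd3d, Cd3e, Cd3g, Cd4 and Cd8a had no count. In a bulk library a few cells at a high level and many at a low level give the same count and cannot be told apart.

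Of 30 genes restricted to tissues other than blood, 23 were silent (76.7%, against 44.4% of protein-coding genes) and 3 were on (10%, against 46.7%). The muscle genes Tnnt2 (60.8 and 40.9 CPM) and Ckm (42.8 and 42.0 CPM) and the myelin gene Mbp (86.7 and 66.1 CPM) were the 3. Ckm overlaps A930016O22Rik on the other strand by 451 exon bases, and Rag2 overlaps B230118H07Rik on the other strand by 208, so part of their reads may belong to those genes. Xist, the RNA of the inactive X chromosome, was at 1144 and 927 CPM, and all 7 Y-linked genes in the list had no count.

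Receptors for growth factors were on in 23 of 27 cases (85.2%) and their ligands in 6 of 21 (28.6%), against 46.7% of protein-coding genes. After Kit and Flt3 the highest receptor genes were Ifngr1 (246 and 199 CPM) and Csf2rb, the common chain of the IL-3, IL-5 and GM-CSF receptors (157 and 134 CPM), and Cxcr4 was at 149 and 91.3 CPM. Csf2ra was at 66.3 and 64.8 CPM and Csf3r, the receptor of the granulocyte factor, at 42.0 and 34.5 CPM. Kitl, the gene of the stem cell factor that the medium supplied, was silent, and Il3 had no count. Tgfb1 (295 and 263 CPM), Vegfa (54.4 and 54.3 CPM), Il6 (8.70 and 10.9 CPM), Csf1 (8.86 and 9.78 CPM), Osm (4.37 and 5.13 CPM) and Flt3l (1.03 and 1.55 CPM) were the ligand genes that were on. Flt3l overlaps the abundant Rpl13a by 750 exon bases on the same strand.

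The genes of the cell cycle were on without exception in 2 lists, with 40 of 40 DNA replication genes and 30 of 30 mitosis genes, against 46.7% of protein-coding genes. The replication genes summed to 9491 and 8882 CPM, led by Mcm6 (1161 and 717 CPM) and Mcm7 (653 and 649 CPM), subunits of the replicative helicase, and by Rrm1 (655 and 637 CPM), a subunit of ribonucleotide reductase. The mitosis genes summed to 6612 and 6189 CPM, led by Top2a (934 and 812 CPM) and Smc4 (516 and 476 CPM). The subunit genes of CAF-1 itself, Chaf1a and Chaf1b, were at 119 and 103 CPM and at 91.0 and 108 CPM. Of 20 genes of G1 control, 17 were on, with Cdk4 at 766 and 912 CPM, Ccnd2 at 339 and 294 CPM and Cdk6 at 191 and 145 CPM. Cdkn2a, which encodes the inhibitors p16 and p19ARF, was the third highest of the list at 252 and 270 CPM, while its neighbour Cdkn2b was at 0.199 and 0.119 CPM. Cdkn1a and Cdkn1b were at 26.1 and 41.3 CPM and at 26.3 and 29.3 CPM.

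Genes of growth were on in most cases, against 46.7% of protein-coding genes. Chaperone genes (31 of 34 on) held 3.01% and 2.97% of the counts, translation factor genes (23 of 24) 2.26% and 2.28%, and nucleolar and ribosome assembly genes (24 of 24) 0.861% and 0.862%. Heat-inducible chaperone genes were the exceptions among the first, since Hspa1a and Hspb1 had no count and Hspa1b stood at 0.953 and 1.01 CPM. Glycolysis genes (20 of 22 on) were led by Aldoa (1470 and 1731 CPM), Pkm (1466 and 1501 CPM) and Ldha (1222 and 1573 CPM). In the list of early response and stress genes 16 of 19 were on. Atf4 (500 and 592 CPM), Asns (196 and 251 CPM), Ddit3 (153 and 222 CPM) and Trib3 (84.3 and 170 CPM), genes of the amino acid and unfolded protein responses, led it, and the early response genes Fos (8.66 and 6.38 CPM) and Egr1 (4.53 and 4.29 CPM) were far below them.

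Several genes that most cells use heavily were nearly absent. Gapdh stood at 5.60 and 4.05 CPM, the γ-actin gene Actg1 at 1.07 and 1.73 CPM and Tmsb10 at 1.83 and 2.62 CPM. The counting left out reads that map to several places, and pseudogenes repeat many transcripts of this kind. For this reason the spliced transcript of each listed gene was divided into windows of 50 bases and the share with an identical copy elsewhere in the genome was counted. The share was 85.6% for Gapdh, 93.6% for Actg1, 46.6% for Tmsb10, 61.0% for Hspa1a, 72.1% for Hspb1 and 15.5% for Lyz2, against 16.2% for Actb, 1.37% for Mpo and 1.26% for Ctsg. Counts of genes with a high share can understate the transcript, and the part of shared sequence in each low value was not tested.

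The 77 ribosomal protein genes, chosen after their values had been seen, were read the same way. Of these, 76 of 77 were on, against 46.7% of protein-coding genes, with means up to 3284 CPM (Rps3), and Rpl23a, with a mean of 0.606 CPM, was not. Of the 76 with a length, the 10 genes with less than 25% of windows shared had a median of 800.3 CPM per kb (14.0 to 2851), the 40 with 25 to 75% a median of 244 (2.76 to 2301) and the 26 with 75% or more a median of 19.6 (1.08 to 591). Spearman's rho between share and level was -0.48 over these 76 genes, which share libraries and are not independent. The relation was loose. Rplp1 stood at 2301 CPM per kb with 62.6% of its windows shared, and Rpl24 at 14.0 with 0.626%.

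**Figure D3:**
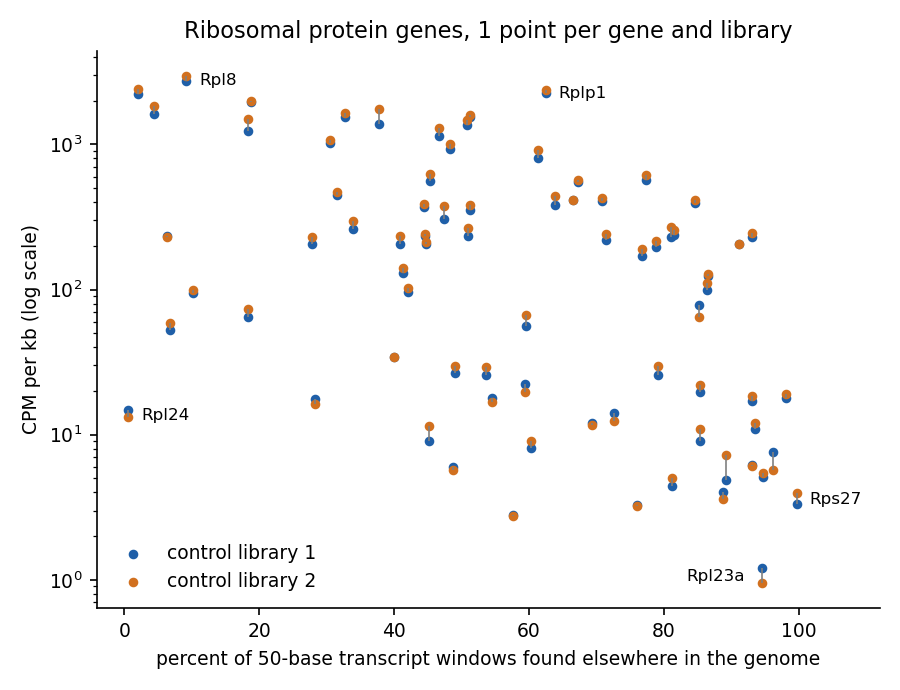
CPM per kb (logarithmic axis) of 76 ribosomal protein genes in each control library against the percent of 50-base windows of the spliced transcript that occur elsewhere in the genome; grey lines join the libraries of a gene. Levels run from 2851 CPM per kb for Rpl8 to 1.08 for Rpl23a, and the lowest genes are found at high shares.

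The control libraries were then compared with each other, as a description of 1 library against 1 with no test. Over the 11112 genes with a mean of 1 CPM or more, the median absolute log2 ratio of library 2 to library 1 was 0.16, where counting alone would give 0.05. The same value was 0.21 between the CAF-1 OFF libraries and 0.14 between the HOXA9 OFF libraries. The biological coefficient of variation estimated by edgeR was 15.2% in control, 17.5% between the CAF-1 OFF libraries and 16.2% between the HOXA9 OFF libraries. In control the median absolute log2 ratio was 0.35 from 1 to 10 CPM, 0.15 from 10 to 100 CPM, 0.12 from 100 to 1000 CPM and 0.10 above, so the spread was widest among low genes. Genes 2-fold or more apart numbered 375 (3.37%), and 293 of them lay from 1 to 10 CPM. The ratio moved with transcript length. Its median was 0.14 in the shortest 2193 genes (up to 1546 bases) and -0.12 in the longest 2191 (4577 bases or more), against -0.22 and 0.29 in CAF-1 OFF and -0.01 and 0.05 in HOXA9 OFF. The part of length in the ratios of single genes was not tested.

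At least 4-fold apart, with 5 CPM or more in the higher library, were 31 genes, of which 29 were higher in library 2 (0.0848% of all genes) and 2 in library 1 (0.00585%). Since the ratio chose these genes, its size in control is a description. Ccdc91 had the widest gap, at 0.199 and 17.3 CPM (87.3-fold), and overlaps Gm6288 on the other strand by 176 exon bases. Fa2h, a fatty acid hydroxylase gene, was at 0.119 CPM (3 counts) and 5.13 CPM (86 counts), 43.0-fold higher in library 2, with an exact binomial 95% interval of 14.2 to 213-fold that covers counting error only. The membrane protein gene Emp1 was at 0.278 and 6.26 CPM, and the desaturase gene Scd1, a relative of the abundant Scd2, at 0.318 and 5.48 CPM. Flrt1, Clic5, Bdh1, Igf2r, Hunk, Cln8, Zc4h2 and Cd86 lay 9.66 to 15.2-fold apart. The highest level was that of Mamdc2, at 16.6 and 157 CPM. In the other direction, the meiotic gene Sycp2 was at 5.16 CPM against no count, at least 28.9-fold higher in library 1, and Chst13, a sulfotransferase gene, was at 5.52 and 0.537 CPM. The gene just inside the limit was Lgmn (4.07-fold) and the gene just outside it Pde3b (3.84-fold).

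**Figure D4:**
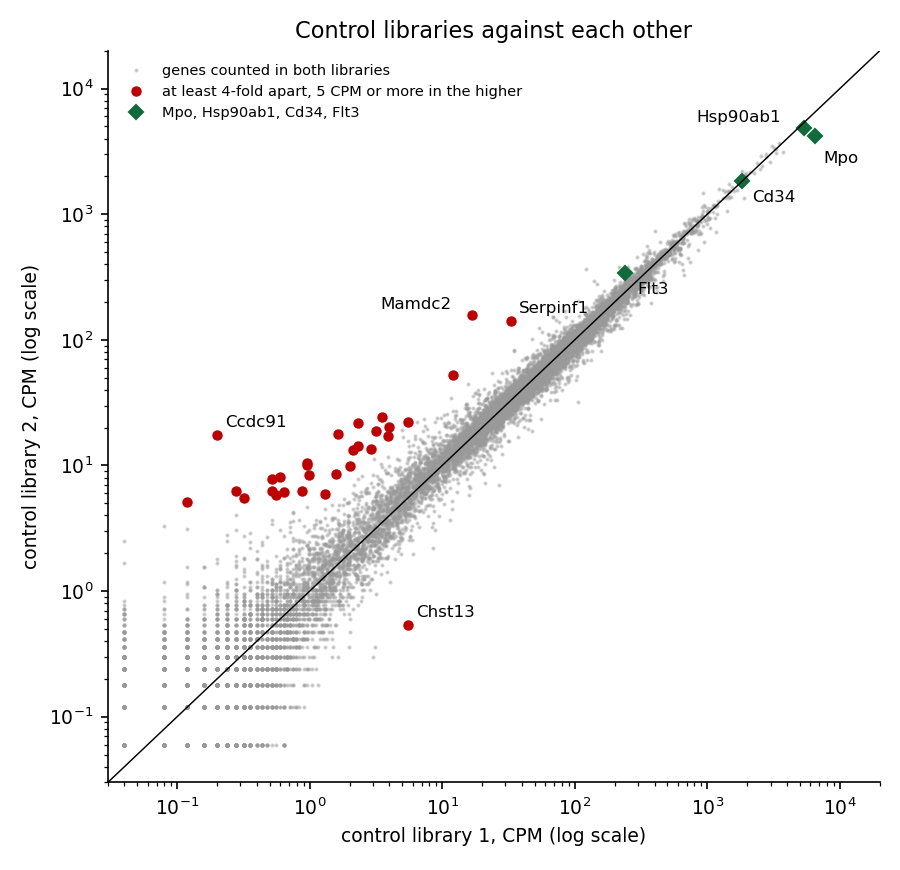
CPM in control library 2 against CPM in control library 1 for genes counted in both (both axes logarithmic, line of equality drawn). Most genes lie along the line; the genes at least 4-fold apart are in red, nearly all above the line, and the 4 marker genes are shown as green diamonds, with Mpo below the line (6510 and 4219 CPM) and Flt3 above it (240 and 338 CPM).

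The libraries of the other groups, which took no part in this choice, were read for the same genes. In HOXA9 OFF, 3 of the 31 genes gave no direction, with 3 counts or fewer in either library, and the remaining 28 of 28 moved in the same direction from library 1 to library 2 as in control. Of all genes with 5 CPM or more in a control library, 60.3% did so. The median log2 ratio of the 28 genes in the control direction was 2.94, and 20 of them were again at least 4-fold apart. Emp1 was at 0.0920 and 17.4 CPM in HOXA9 OFF, Ccdc91 at 0.460 and 20.6 CPM, and Sycp2 at 4.33 and 0.0590 CPM. In CAF-1 OFF, 14 of 29 genes moved in the same direction, where 33.5% of all such genes did, the median was -0.09 and none of the 31 was at least 4-fold apart in the control direction. Ccdc91 was at 15.7 and 21.6 CPM there. The labels give replicates 1 and 2 in every group and do not say what the numbers mark. The part of clone, culture and library preparation in the shared differences was not tested.

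**Figure D5:**
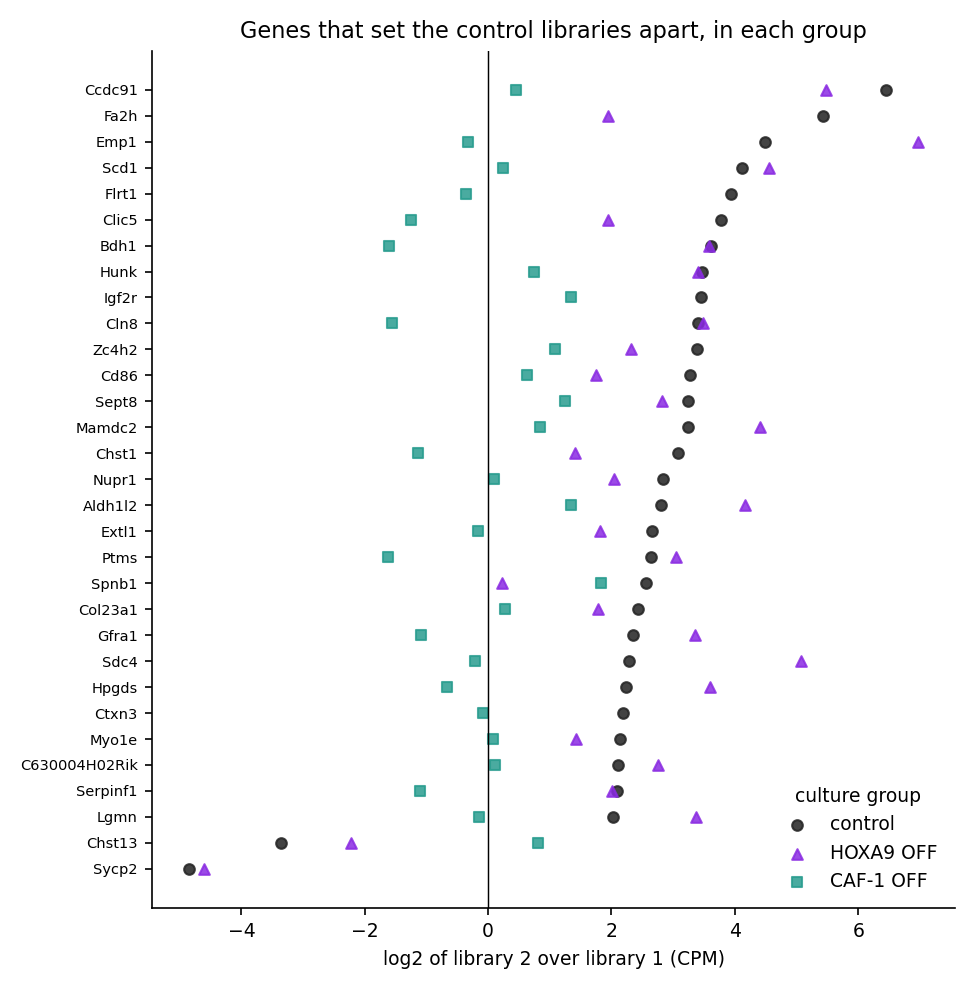
Log2 ratio of library 2 to library 1 (CPM) in control, HOXA9 OFF and CAF-1 OFF cultures for the 31 genes at least 4-fold apart between the control libraries; groups with at most 3 counts in both libraries have no point. The HOXA9 OFF points lie on the side of the control points for all 28 genes shown, whereas the CAF-1 OFF points lie on both sides of 0.

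Several lists, including some of lineage genes and that of mitosis, were skewed between the control libraries. Of all genes with a mean of 1 CPM or more, 54.0% were higher in control library 2. The share of the same genes was 56.7% in HOXA9 OFF and 51.9% in CAF-1 OFF. In the mast cell, basophil and eosinophil list 0 of 13 such members were higher in library 2 (median log2 ratio -0.66), with 3 of 13 in HOXA9 OFF and 2 of 13 in CAF-1 OFF (medians -0.39 and -0.65). Among late granule genes 2 of 14 were higher in library 2 (-0.62), with 1 of 14 in HOXA9 OFF and 5 of 14 in CAF-1 OFF (-0.73 and -0.05). In the B lymphoid list 8 of 9 were higher in library 2 (0.51), with 8 of 9 in HOXA9 OFF and 2 of 9 in CAF-1 OFF (0.36 and -0.20). Among mitosis genes 7 of 30 were higher in library 2 (-0.05), with 1 of 30 in HOXA9 OFF and 18 of 30 in CAF-1 OFF (-0.12 and 0.06). The control median of the mitosis list was small beside 0.16, the median absolute log2 ratio over all genes of this level. The part of transcript length in the ratios of the lists was not tested. DNA replication genes were evenly split in control, with 20 of 40 higher in library 2 and a median of 0.00, but not in HOXA9 OFF, with 12 of 40, and 23 of 40 were higher in CAF-1 OFF (-0.05 and 0.02). Other lists leaned to 1 side in control too. Higher in library 2 were 11 of 37 progenitor transcription factors, 7 of 23 growth factor receptors and 4 of 13 primary granule genes. The lean was the other way for chaperones, with 22 of 31, and glycolysis genes, with 14 of 20. With 2 libraries each of these spreads rests on 1 difference.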

How the data were processed

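RNA-seq of total RNA (RNeasy, NEBNext kit) was aligned to mm9 with STAR and counted per gene with HTSeq by the authors. The deposited values were raw counts for 34199 gene symbols, with no normalization. The annotation, read length and strand setting of the counting were not given in the sources used here. Per 100 gene counts, the control files also tallied 6.87 and 7.15 reads in no feature, 3.07 and 3.14 ambiguous reads and 100.0 and 107 alignments that were not unique, which were left out here.

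Counts were divided by each library's gene total and expressed as CPM. Groups came from the sample titles. No test was run, because 1 group of 2 libraries is described. Of the symbols, 32885 matched 1 GENCODE gene of NCBIM37 (the assembly that mm9 names), which gave lengths, positions and exon overlaps. Fold changes with 3 counts or fewer in a library were computed against 3 counts. edgeR 4.0.16 (R 4.3.3) gave the coefficient of variation and TMM factors, DESeq2 1.42.0 its size factors, and Python 3.11.15 the rest. Steps were tested on simulated data. Promoters were RefSeq sequences of GRCm38.p6, matched by symbol, and Hsp90ab1 was not among those used.

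Named genes were the 25 highest by CPM, the 15 highest per kb (length of 200 bases or more), members of 27 lists, the 12 genes per direction with the largest gap between the libraries, and the 4 markers. Ribosomal protein genes outside these sets, Lgmn, Pde3b and Mamdc2 were chosen after their values were seen. The members and lists were chosen with earlier results of these data known. Alternatives were other scalings, other limits, levels per kb and each library alone. Values of a few named genes are not reported here.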

Additional observations from a re-analysis of the deposited data

How the results depend on the processing

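The count of genes that were on, the count that were silent, the count of list members that were on and the median absolute log2 ratio stayed within 1.5-fold under each alternative run for them. Per kb of exon length, 707 genes instead of 1093 held 50% of the mean level and the 100 highest held 21.5% instead of 15.4%. With the union of all annotated exons as the length, an alternative added after seeing the data, these values were 703 and 21.7%. With either control library alone the 100 highest genes held 15.4%. Genes at least 4-fold apart numbered 31, against 174 at 2-fold, 17 at 8-fold, 16 with 10 CPM in the higher library and 208 with no minimum level. At 1 CPM per kb instead of 1 CPM, 5 instead of 9 B lymphoid genes and 3 instead of 6 erythroid genes were on, and at 2 CPM 8 instead of 13 mast cell, basophil and eosinophil genes. T and NK genes that were on went from 3 to 1 at either of these limits. At 0.5 CPM, 5 instead of 3 genes of tissues other than blood and 2 instead of 1 antigens that exclude the phenotype were on, and the latter count was also 2 without control replicate 2. With 2 libraries, depth limits statements on silent genes to 0.119 and 0.179 CPM, and each spread rests on 1 difference. No paired analysis was possible because the control group was described alone and no result came from a test, so there was no fit to which the replicate numbers of the titles could be added as a block.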

Other observations

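Protein-coding genes that were on made up 31.8% of those on the X chromosome (290 of 913), 36.7% of those on chromosome 14 (342 of 933) and 39.3% of those on chromosome 7 (805 of 2048), against 54.6% on chromosome 8 (582 of 1066) and 54.5% on chromosome 19 (389 of 714). None of the 17 protein-coding genes on the Y chromosome was on. Chromosome 1 held 6.13% of the counts of library 1 and 5.54% of those of library 2, and chromosome 7 held 7.12% and 7.45%. Among long noncoding RNAs, Malat1 was at 153 and 149 CPM and Neat1 at 71.5 and 64.4 CPM.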
